A study of Mus musculus with 10 samples.

Results

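The genes described here encode the mouse receptors that bind the constant (Fc) part of IgG and IgE: Fcgr1, Fcgr2b, Fcgr3, Fcgr4, the shared signalling chain Fcer1g, and the alpha and beta chains of the high-affinity IgE receptor, Fcer1a and Ms4a2. These 7 genes were taken by name from the 32285 genes of the matrices, and all 7 were found. Their unique molecular identifier (UMI) counts were summed over barcodes, the droplet labels that each stand for about 1 cell, in 4 classes. Macrophages were barcodes with at least 10 UMIs of C1qa, C1qb and C1qc together, mast cells or basophils had at least 3 UMIs of Cpa3 and Mcpt8 together, other Ptprc-positive barcodes had a UMI of the CD45 gene Ptprc, and tumor barcodes had a UMI of Sox10 and none of Ptprc. All barcodes had at least 500 genes and at most 10% of UMIs from mt- genes. Those that passed both of the first gates were set apart, and other Ptprc-positive and tumor barcodes had passed neither. Sums were scaled to UMIs per 1000000 of the class (CPM). UMIs count transcript ends and are not scaled by length.

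SW1 is a mouse melanoma cell line, grown under the skin of female C3H/HeJ mice that were 4 to 6 weeks old, and L-fuc (L-fucose) is a sugar the treated mice drank with their water. The libraries were pretreatment tumors (control day 0), tumors on control water for 7 or 21 days, and tumors on L-fuc water for 7 or 21 days, each a pool of mice labelled as sorted CD45+ cells. The labels give the L-fuc dose as 100 mM in one place and 100 nM in another, and give 5 or 6 mice per arm with 3 mice at pretreatment. Every condition was therefore 1 library with no replicate, so ratios between conditions carry exact 95% intervals for counting error only and no test. A ratio of summed UMIs does not by itself tell fewer positive cells apart from less RNA per cell.

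Fc gamma receptors link antibody to the cells that carry it. In mice Fcgr1, Fcgr3 and Fcgr4 encode activating receptors that need the gamma chain Fcer1g for surface expression and signalling, while Fcgr2b encodes the inhibitory receptor, which recruits the phosphatase SHIP-1 (Inpp5d). On mast cells and basophils the gamma chain joins Fcer1a and Ms4a2 to form the IgE receptor. Macrophages of tumors are known to carry all the IgG receptors, NK cells mainly Fcgr3, and B cells Fcgr2b alone.

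The filter left between 1182 and 17897 barcodes per library, 31156 of 41936 in all. Among them were 5461 macrophages, 151 mast cells or basophils, 7213 other Ptprc-positive barcodes, 12725 tumor barcodes and 37 that passed both gates. Between 46.4% and 72.4% of a library's kept barcodes had no Ptprc UMI, although the label is a CD45 sort. All 8 macrophage markers were found in the macrophages of each library. In tumor barcodes Sox10 was present by the gate, and Mitf and S100b were found in each library. Tyr had no UMI in any library, and Mlana had none at control day 0, control day 21 or L-fuc day 21. These barcodes are therefore called tumor by their gate. Macrophages with a Sox10 UMI made up 31.1% of the class at control day 7, 13.4% at L-fuc day 7, and 2.19% to 9.98% elsewhere. The 2 libraries of day 7 shared 222 kept barcode sequences, and other pairs shared at most 43.

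The IgE receptor chains marked the mast cell or basophil gate, which did not use them. The promoters of Fcer1a and Ms4a2 are shown because these genes had the highest correlation of any pair of members over the class sums. The mast cell or basophil sums alone carry that correlation. Both lie on the minus strand, and each sequence runs 5′ to 3′ from 250 bases before the start of the gene to 50 after it (GRCm38.p6, RefSeq). Capitals mark AGATAA or TGATAA on either strand, which occurred in 18.6% of 32851 promoters of this length. These are among the letters that GATA factors bind, and other such letters were not searched.
Fcer1a, chr1:173227180-173227479: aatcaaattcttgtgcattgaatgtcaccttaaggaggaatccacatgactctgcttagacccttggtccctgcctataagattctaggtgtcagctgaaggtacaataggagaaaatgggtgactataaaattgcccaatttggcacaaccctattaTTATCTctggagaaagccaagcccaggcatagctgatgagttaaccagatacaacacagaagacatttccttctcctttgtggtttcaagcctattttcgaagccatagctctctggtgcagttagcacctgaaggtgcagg
Ms4a2, chr19:11623670-11623969: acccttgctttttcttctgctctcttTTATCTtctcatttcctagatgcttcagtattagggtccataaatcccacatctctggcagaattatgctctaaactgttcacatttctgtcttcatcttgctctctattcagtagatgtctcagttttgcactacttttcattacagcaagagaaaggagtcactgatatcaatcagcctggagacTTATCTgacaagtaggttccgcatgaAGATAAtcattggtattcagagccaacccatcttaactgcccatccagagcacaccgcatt
The Fcer1a promoter held the letters once, 92 bases before the start, and the Ms4a2 promoter held them at 224, 37 and 11 bases before it. None of the 6 promoters of the other members held AGATAA or TGATAA, which leaves out other letters of the GATA kind. A second set of letters, GAGGAAGT or GAGGAACT on either strand, of the kind that PU.1 binds, was found in 4.76% of all promoters and among the members only in Fcgr4, 24 bases before its start. Other letters of the PU.1 kind were not searched, so the other members may hold them. A match of letters is a description of the sequence and no evidence of binding.

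Fcer1a, the IgE-binding chain, had 208 CPM in the 13 mast cells or basophils of control day 7. It had 499 CPM in the 130 of L-fuc day 7 and 694 CPM in the 7 of control day 21. Ms4a2, the signal-amplifying beta chain, had 104, 259 and 585 CPM in the same order. The gate was empty at control day 0 and held 1 barcode at L-fuc day 21, with 1 UMI of each gene. In macrophages, other Ptprc-positive and tumor barcodes both genes were at 0.875 CPM or less in every library. Of all kept UMIs, 71.3% of the 698 from Fcer1a and 74.9% of the 359 from Ms4a2 came from this gate, and a further 15.0% and 8.08% from barcodes that passed both gates.

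At L-fuc day 7 a UMI of either chain was found in 101 of the 130 barcodes, and of both chains in 64. Fcer1a was found in 61.5% of these barcodes and in 0.385% of the T cells of that library, at a median of 4262 and 3865 UMIs, and Ms4a2 in 65.4% and 0.128%. The gate there split into 99 barcodes with at least 3 UMIs of the basophil protease Mcpt8 and 24 with none. Fcer1a stood at 418 CPM (95% interval 372 to 469) in the first and 858 CPM (703 to 1037) in the second, whereas Ms4a2 stood at 290 CPM (252 to 333) and 144 CPM (85.6 to 228). In this 1 library Fcer1a was thus lower and Ms4a2 higher in the barcodes with Mcpt8. The intervals cover counting error of summed UMIs and not the spread between barcodes, and the highest barcode of the gate had 32 Fcer1a UMIs. This difference was not tested.

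The same gate held Fcer1g and Fcgr3 without the other activating IgG receptors. Fcer1g had 1298, 2347 and 2991 CPM in that same order. Fcgr3, the low-affinity activating receptor, had 77.9, 155 and 455 CPM, and the inhibitory Fcgr2b 38.9, 66.7 and 152 CPM. Fcgr1 and Fcgr4 had no UMI in any library. Over both day 7 libraries the floor of 3 UMIs is 3.07 CPM, so Fcgr1 was at least 3.85-fold lower and Fcgr4 at least 3.57-fold lower than in other Ptprc-positive barcodes, which had 11.8 and 11.0 CPM. The 36 barcodes of L-fuc day 7 that passed both gates had 9 UMIs of Fcgr1 and 42 of Fcgr4.

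Across the day 7 libraries, the only ones with at least 10 such barcodes, edgeR called 6.49% of 12719 genes between mast cells or basophils and other Ptprc-positive barcodes. Fcer1a and Ms4a2 had at most 0.837 CPM in the other Ptprc-positive barcodes. They passed the filter on counts through the mast cell or basophil sums alone, so a difference was fixed by entry. Their log2 differences, 9.12 ± 0.47 and 8.86 ± 0.53 (SE), are therefore given without a test. Fcgr3 was higher by 2.13 ± 0.38 (adjusted p = 1.22e-06) and Fcer1g by 1.36 ± 0.26 (adjusted p = 1.24e-05), while Fcgr2b, with 1.11 ± 0.39, did not pass (adjusted p = 0.0612). Fcgr1 and Fcgr4 had no UMI in the mast cell or basophil sums and passed the filter through the other Ptprc-positive sums alone. A lower level was thus fixed by entry, and both are likewise given without a test. This fit rests on 2 libraries, so its p-values rest mainly on a spread pooled over genes. Without the library block Fcgr3 (adjusted p = 0.0619) and Fcer1g (0.259) were no longer called.

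**Figure D1:**
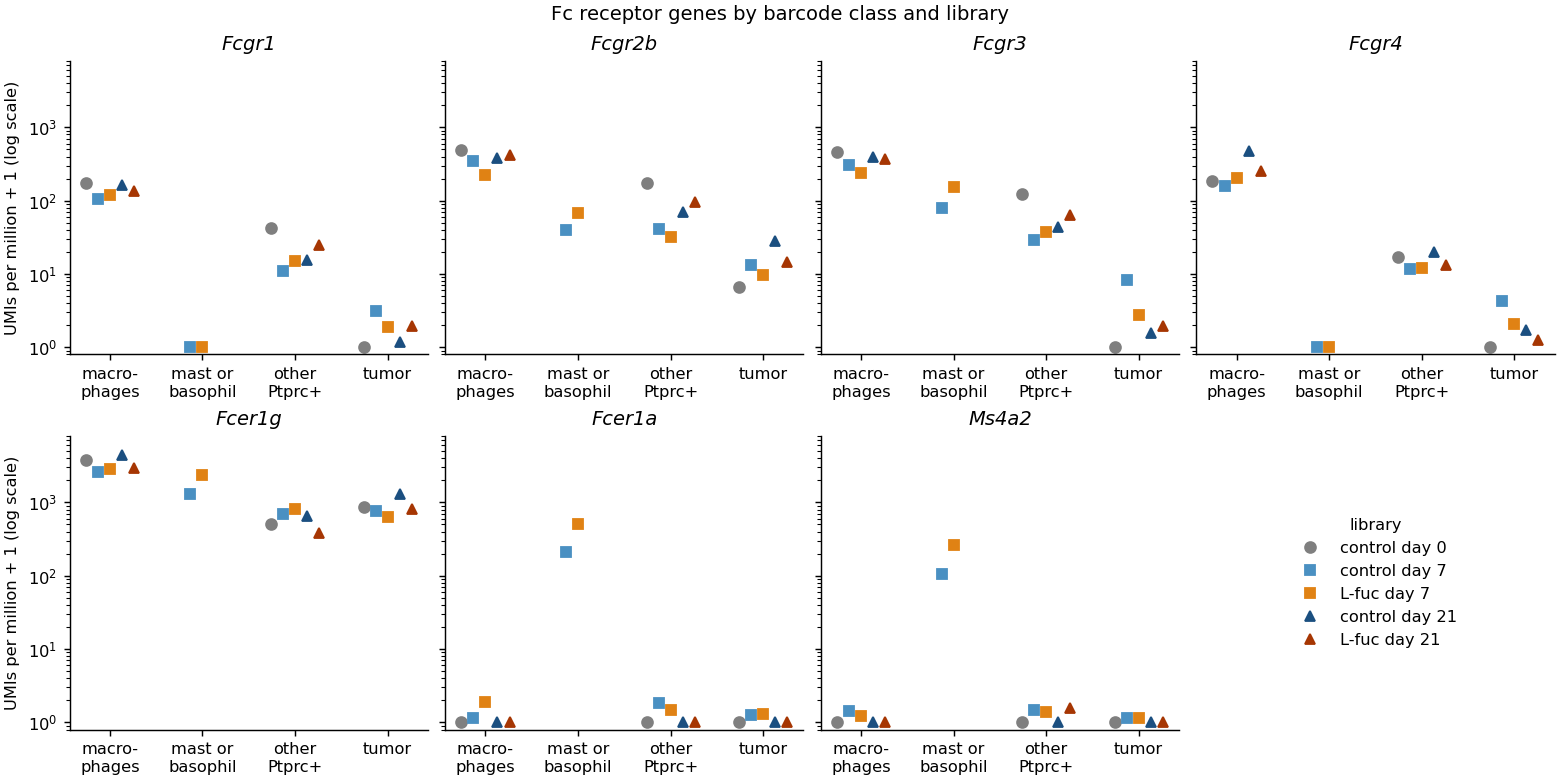
CPM plus 1 on a log axis for each gene (panels) by barcode class (x axis), with 1 point per library; classes with under 10 barcodes in a library are left out. Fcer1a and Ms4a2 stand above 100 CPM only in mast cells or basophils, and Fcer1g is the one gene that stays above 300 CPM in all 4 classes.

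Macrophages were the main source of the IgG receptors. They gave 86.1% of all kept Fcgr1 UMIs, 78.0% of Fcgr2b, 83.7% of Fcgr3 and 91.8% of Fcgr4, but only 52.4% of Fcer1g, with a further 33.5% of its UMIs in tumor barcodes. These shares pool libraries of unequal size. Control day 7 had 53183 Fcer1g UMIs in tumor barcodes and 36055 in macrophages, while in each of the 4 other libraries macrophages had more, for instance 19993 against 3941 at control day 0. Values over all libraries are given from pretreatment through the control and L-fuc libraries of day 7 to the control and L-fuc libraries of day 21. In macrophages Fcgr1, the high-affinity receptor, had 176, 103, 117, 162 and 135 CPM. Fcgr3 had 456, 304, 239, 395 and 370 CPM, lowest in the day 7 libraries. Fcgr2b had 489, 347, 220, 375 and 418 CPM. Fcgr4, the receptor for IgG2 subclasses, had 182, 157, 200, 476 and 251 CPM, with control day 21 well above the rest. Fcer1g had 3770, 2625, 2878, 4393 and 2983 CPM. In each of the 5 libraries all 5 genes were higher in macrophages than in other Ptprc-positive barcodes, where their highest CPM were 41.1 for Fcgr1, 172 for Fcgr2b, 122 for Fcgr3, 19.1 for Fcgr4 and 802 for Fcer1g.

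With libraries as blocks, edgeR called 30.2% of 13555 genes between macrophages and other Ptprc-positive barcodes. All 5 genes tested were called higher. Fcgr4 had the largest difference of them, 4.34 ± 0.20 on the log2 scale (SE, adjusted p = 4.09e-05), followed by Fcgr1 with 3.14 ± 0.26, Fcgr3 with 3.02 ± 0.27, Fcer1g with 2.73 ± 0.21 and Fcgr2b with 2.66 ± 0.28 (adjusted p between 0.000275 and 0.000920). All 5 calls held in the 12 alternatives run. The 5 libraries are of different conditions, so the p-values measure how far the difference between classes varied over these pools and not over mice. Fcer1a and Ms4a2 had too few UMIs to be tested.

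The 4 IgG receptor genes differed in where they stood among macrophages. Barcodes with at least 3 UMIs of Arg1, which encodes arginase, had more Fcgr2b than those with none in 5 of 5 libraries, by 1.76-fold, 1.94-fold, 2.50-fold, 2.91-fold and 2.02-fold in the order of libraries above. These Arg1 sets held 109, 214, 165, 35 and 45 barcodes. Cuts on raw UMIs, here and for the genes below, pick deeper barcodes more easily, and depth was not matched. Fcgr3 was also higher with Arg1 in each library, by 1.46-fold to 1.85-fold. Fcgr4 was lower with Arg1 in each, at 0.573 to 0.883 of the other level, although the interval at L-fuc day 21 reached 1.001. Fcgr1 had no common direction with Arg1, at 0.751, 1.07, 1.06, 0.536 and 1.39 of the other level in the same order of libraries. The share of Fcgr2b among the UMIs of the 4 Fcgr genes was 39.9% to 45.9% with Arg1 and 23.1% to 35.8% without it, so the ranges did not overlap. Macrophages with a UMI of the chemokine receptor gene Cx3cr1 had more Fcgr1 than those with none in every library, by 1.54-fold to 2.16-fold. This was not particular to Fcgr1. Fcgr2b (1.07-fold to 1.69-fold), Fcgr3 and Fcer1g were also higher with Cx3cr1 in every library. The interval reached down to 0.984 for Fcgr2b at control day 21 and to 0.959 for Fcgr3 at control day 0. Fcgr4 was higher with Cx3cr1 except at control day 21, where it stood at 0.904 of the other level. Cycling macrophages, with at least 2 UMIs of Mki67 and Top2a together, had less Fcgr2b than those with none (0.627 to 0.758 of it) and less Fcgr3 (0.527 to 0.738 of it) in every library. Fcgr1 and Fcgr4 were also lower in them except at control day 0 (1.19 and 1.00), although the interval for Fcgr1 at L-fuc day 7 (0.959) reached 1.06.

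L-fuc and control libraries were compared to see whether macrophages differed in their receptors. At day 7 the Fcgr2b level with L-fuc was 0.634 of that in control (95% interval 0.608 to 0.661), which is past the 1.5-fold line. Fcgr3 stood at 0.784 (0.751 to 0.818), Fcgr1 at 1.14 (1.07 to 1.22), Fcgr4 at 1.28 (1.21 to 1.35) and Fcer1g at 1.10 (1.08 to 1.11) of control. Thus 1 of the 5 genes was past 1.5-fold, against 20.3% of 12864 genes, and the median log2 ratio of all genes was −0.14, or 0.00 with TMM scaling. Of these genes 749 were higher and 1868 lower, and with TMM scaling 994 and 1278. Fcgr2b stayed below control in all 8 alternatives, but was short of 1.5-fold with TMM scaling (log2 ratio −0.51), with at least 30 C1q UMIs (−0.52) and without Sox10, Cd3 or Cd79a barcodes (−0.55). Macrophages with a Sox10 UMI were more frequent in the control library, as given above.

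The lower Fcgr2b level at day 7 was seen in each stratum of macrophages. Within barcodes without Arg1 the ratio of L-fuc to control was 0.619 (0.587 to 0.653), and within those with at least 3 Arg1 UMIs it was 0.796 (0.734 to 0.862). With and without Cx3cr1 the ratios were 0.671 and 0.589, and in cycling and non-cycling barcodes 0.647 and 0.620. Macrophages with at least 3 Arg1 UMIs were 8.11% of the class with L-fuc and 12.1% in control. Among the UMIs of the 4 Fcgr genes Fcgr2b took 28.4% (27.6% to 29.1%) with L-fuc and 38.1% (37.3% to 39.0%) in control, a ratio of 0.744 (0.719 to 0.770).

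At day 21 the order was another one. Fcgr4 with L-fuc was 0.528 of control (0.497 to 0.561), past 1.5-fold in the main sums and in all 8 alternatives, and Fcer1g was 0.679 of control (0.667 to 0.691). Fcgr1 stood at 0.834 (0.763 to 0.911), Fcgr3 at 0.936 (0.886 to 0.988) and Fcgr2b at 1.11 (1.06 to 1.17). Again 1 of the 5 genes was past 1.5-fold, against 12.2% of 10987 genes, although Fcer1g passed with TMM scaling (log2 ratio −0.60) and both Fcer1g (−0.66) and Fcgr1 (−0.87) after thinning each barcode to 1000 UMIs. Fcgr4 was lower with L-fuc in each stratum, by most in barcodes without Cx3cr1, 0.326 (0.278 to 0.380), and by least in those with at least 3 Arg1 UMIs, 0.711 (0.599 to 0.845). The share of Fcgr2b was 35.6% (34.5% to 36.7%) with L-fuc and 26.6% (25.8% to 27.5%) in control, a ratio of 1.34 (1.28 to 1.40). The direction for Fcgr3 was not stable, since its log2 ratio of −0.10 became 0.16 without Sox10, Cd3 or Cd79a barcodes and 0.10 after the thinning. Fcgr2b stood at 0.702 of control (0.635 to 0.776) within barcodes with at least 3 Arg1 UMIs and at 1.01 (0.944 to 1.08) within those without. Barcodes with at least 3 Arg1 UMIs were 10.9% of the macrophages with L-fuc (45 barcodes) and 4.44% in control (35 barcodes).

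**Figure D2:**
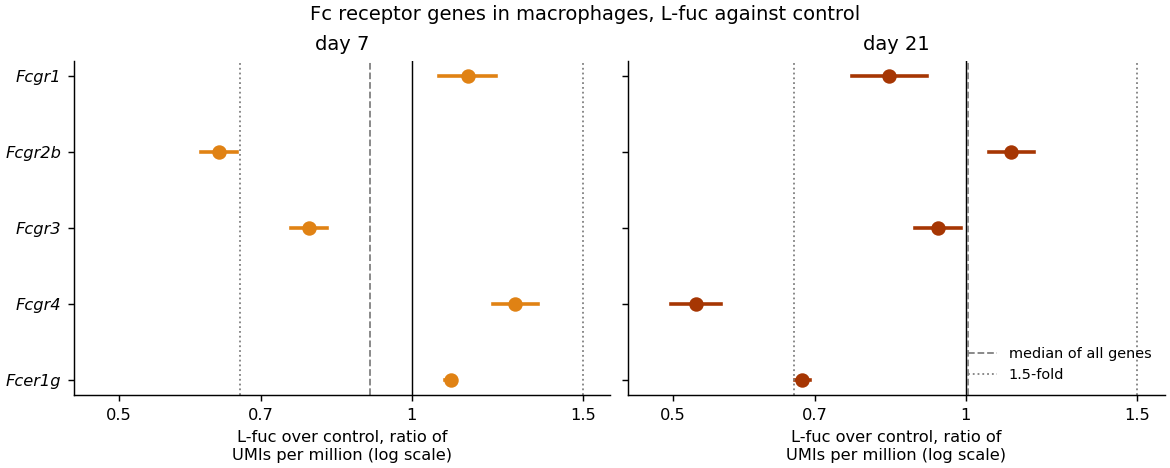
Ratio of CPM in macrophages, L-fuc over control, on a log axis at day 7 (left) and day 21 (right); points are ratios and bars exact 95% intervals for counting error. Fcgr2b lies at 0.634 at day 7 and 1.11 at day 21, and Fcgr4 at 1.28 and 0.528.

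**Figure D3:**
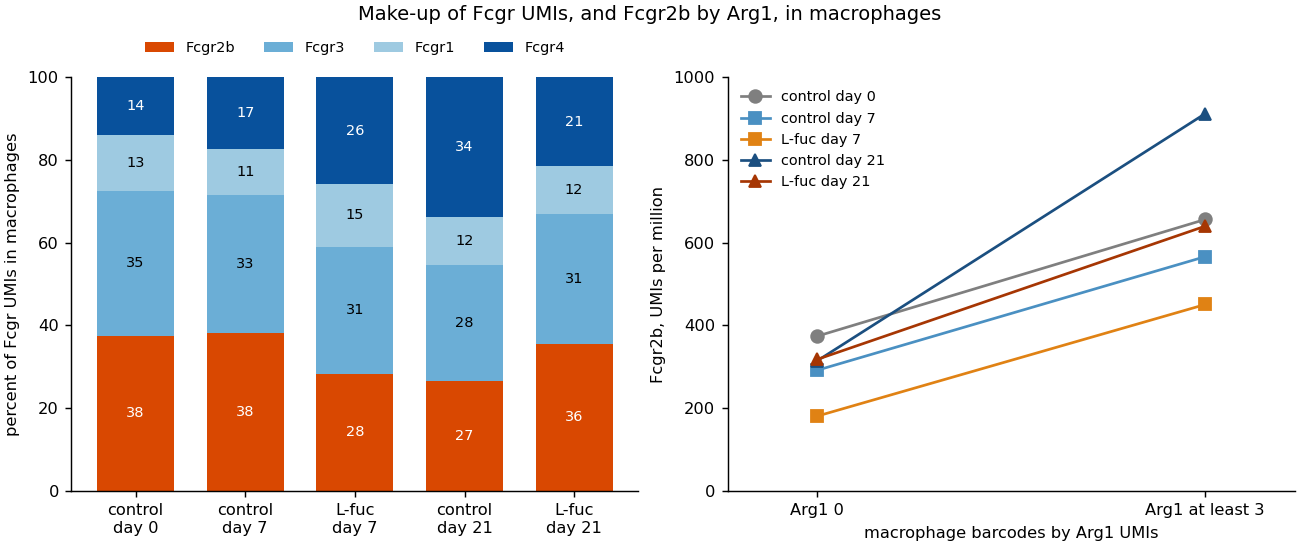
Left, percent of the UMIs of the 4 Fcgr genes in macrophages of each library, stacked to 100; right, Fcgr2b CPM in macrophages with 0 and with at least 3 Arg1 UMIs, 1 line per library. Fcgr2b holds 28.4% at L-fuc day 7 against 38.1% at control day 7, and all 5 lines run upward with Arg1.

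The control libraries were also compared over time, and these ratios share libraries with those above. From day 0 to day 7 the level in macrophages was 0.585 for Fcgr1 (0.538 to 0.636), 0.668 for Fcgr3, 0.696 for Fcer1g, 0.711 for Fcgr2b and 0.860 for Fcgr4. Only Fcgr1 was past 1.5-fold, against 47.3% of 11976 genes, while the median log2 ratio of all genes was 0.38, and 0.11 with TMM scaling. Of those genes 4837 were higher and 823 lower, and with TMM scaling 3533 and 1697, when Fcgr2b (−0.77), Fcgr3 (−0.86) and Fcer1g (−0.80) were past 1.5-fold too. Fcgr1 was no longer past 1.5-fold without Sox10, Cd3 or Cd79a barcodes (log2 ratio −0.45), with at least 30 C1q UMIs (−0.55) or after thinning (−0.44), and Fcgr2b turned from −0.49 to 0.08 after thinning to 1000 UMIs. From day 7 to day 21 Fcgr4 was 3.04-fold higher (2.88 to 3.21), Fcer1g 1.67-fold (1.65 to 1.70) and Fcgr1 1.58-fold (1.46 to 1.71), all past 1.5-fold, against 39.5% of 12140 genes, of which 1219 were higher and 3578 lower (1839 and 2677 with TMM scaling). Fcgr3 was 1.30-fold and Fcgr2b 1.08-fold higher. Without Sox10, Cd3 or Cd79a barcodes Fcgr4 stayed at a log2 ratio of 1.24, whereas Fcer1g (0.39) and Fcgr1 (0.32) fell short of 1.5-fold and Fcgr2b turned from 0.11 to −0.29. Thinning also turned Fcgr2b, to −0.37, and left Fcgr3 at −0.01. With at least 30 C1q UMIs Fcgr2b was at −0.04, Fcer1g at 0.55 and Fcgr1 at 0.45.

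At day 7 the L-fuc and control libraries were compared in the 2 other classes with enough barcodes. In mast cells or basophils the ratios were 2.40 for Fcer1a (1.46 to 4.24), 2.49 for Ms4a2 (1.25 to 5.85), 1.81 for Fcer1g (1.48 to 2.23), 1.98 for Fcgr3 (0.889 to 5.50) and 1.71 for Fcgr2b (0.559 to 8.54). These 5 genes were all past 1.5-fold, but so were 52.2% of 4079 genes (1147 higher and 983 lower, or 1766 and 407 with TMM scaling), and the control library held 13 such barcodes, of which 5 had a UMI of Fcer1a or Ms4a2. The 6 basophil markers summed to 6248 CPM in this gate with L-fuc and 1155 CPM in control, and the 8 mast cell markers to 18080 and 12956 CPM, and the part of this mix in the ratios was not tested. In other Ptprc-positive barcodes none of 5 members was past 1.5-fold, against 36.8% of 13465 genes. Fcgr1 there stood at 1.43 (1.17 to 1.74), Fcgr3 at 1.27, Fcer1g at 1.14, Fcgr4 at 1.04 and Fcgr2b at 0.759 (0.676 to 0.851). The make-up of this class differed between the libraries, with L-fuc against control at 2117 and 275 CPM for the summed NK cell markers, 1094 and 332 CPM for T cells, 617 and 211 CPM for neutrophils, and 526 and 881 CPM for macrophages. Their part in these ratios was not tested. Without Sox10, Cd3 or Cd79a barcodes Fcgr1 (log2 ratio 1.32) and Fcer1g (1.03) were past 1.5-fold, Fcgr1 passed with TMM scaling (0.63), and Fcgr2b passed with at least 30 C1q UMIs (−0.62) and after thinning (−0.81).

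Fcer1g was also abundant in tumor barcodes. It had 867, 751, 623, 1316 and 806 CPM in the order of libraries given above. The receptors it usually serves were nearly absent there, with at most 2.10 CPM of Fcgr1, 7.29 of Fcgr3 and 3.28 of Fcgr4 in any library. At control day 0 the tumor barcodes had 3941 UMIs of Fcer1g and none of Fcgr1, Fcgr3 or Fcgr4, where a count of 0 allows up to 0.660 CPM. Fcgr2b was low but present, with 5.72 to 27.1 CPM.

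Macrophage RNA was measured in the same barcodes through other myeloid genes. The tumor gate did not use Tyrobp, Lyz2 or the Fcgr genes. It did leave out barcodes with at least 10 UMIs of C1qa, C1qb and C1qc together, so barcodes rich in these were absent by construction. Per 100 Fcer1g UMIs, macrophages had 59.8 to 76.1 UMIs of Tyrobp, another signalling chain of myeloid cells, and 8.29 to 12.4 of Fcgr3. Tumor barcodes had 0.178, 5.26, 2.76, 0.393 and 0.980 UMIs of Tyrobp, and at most 0.970 of Fcgr3. A set of tumor barcodes had no UMI of Tyrobp, C1qa, C1qb, C1qc, Lyz2, Fcgr1, Fcgr3 or Fcgr4. It held 237, 1674, 1532, 315 and 155 barcodes, with 921, 721, 601, 1366 and 785 CPM of Fcer1g. Tumor barcodes with any of these genes numbered 26, 7146, 1335, 158 and 147. They had 364, 758, 652, 1213 and 839 CPM of Fcer1g in the same order. The part of macrophage RNA in these values was not tested.

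Fcer1g was uneven among tumor barcodes. Of those with at least 10000 UMIs, 46.7% at control day 0 had no Fcer1g UMI while 37.4% had at least 10. In the other libraries, in order, the shares at 0 were 19.6%, 41.4%, 15.5% and 25.9%, and the shares with at least 10 were 41.5%, 33.3%, 70.5% and 51.9%. Over all tumor barcodes of a library, the 10% with the most Fcer1g held 38.0% to 58.0% of its UMIs. The highest barcode of each library had between 137 and 232 Fcer1g UMIs.

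Tumor barcodes with at least 10 Fcer1g UMIs were set beside those with none, both with at least 10000 UMIs. Sox10, which the gate used, stood at 0.791 to 1.03 of the level without Fcer1g. The median depth of the barcodes with Fcer1g was higher in each library, for instance 20333 against 18007 UMIs at control day 0.

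**Figure D4:**
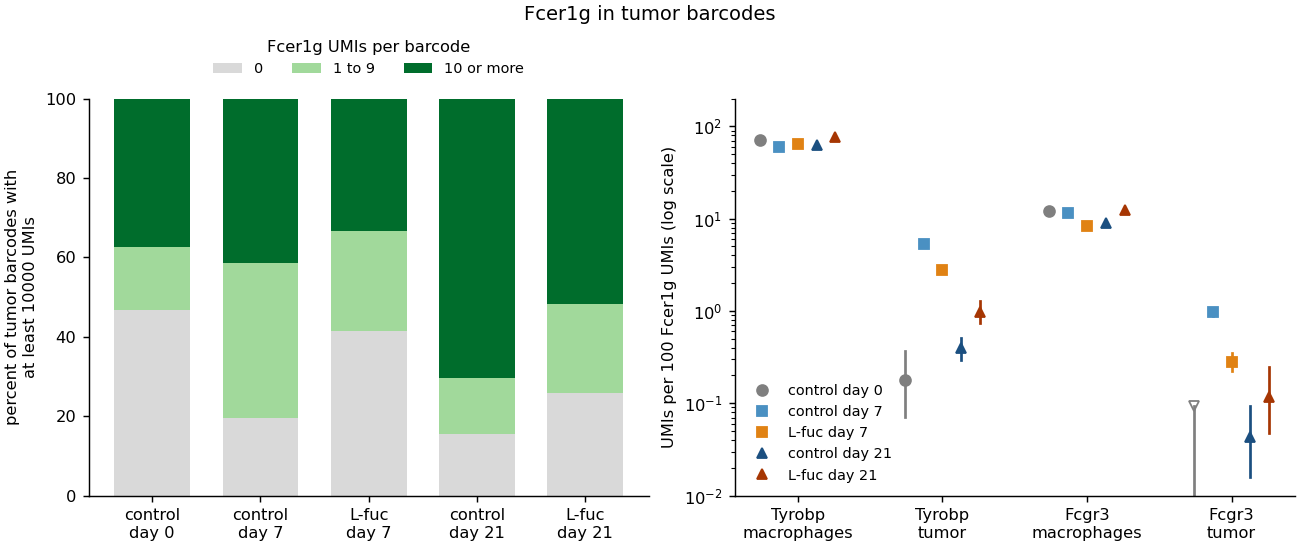
Left, percent of tumor barcodes of at least 10000 UMIs with 0, 1 to 9 and at least 10 Fcer1g UMIs in each library; right, UMIs of Tyrobp and Fcgr3 per 100 Fcer1g UMIs in macrophages and tumor barcodes on a log axis, with exact 95% intervals and an open triangle at the upper limit where the count was 0. Tyrobp stands at 59.8 to 76.1 in macrophages and at 0.178 to 5.26 in tumor barcodes.

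T cells served as lymphocytes for comparison, as other Ptprc-positive barcodes with at least 2 Cd3 UMIs and no second gate. They had 127, 532, 446, 109 and 54.1 CPM of Fcer1g, less than tumor barcodes in 5 of 5 libraries. edgeR called 49.0% of 12804 genes between the classes, with Fcer1g higher in tumor barcodes by 2.14 ± 0.64 on the log2 scale (SE, adjusted p = 0.0272). Fcgr3 was lower by 3.48 (log2 difference −3.48 ± 0.63, adjusted p = 0.00491), Fcgr1 had −2.85 ± 0.56 (0.00659) and Fcgr4 −2.76 ± 0.43 (0.00252), and Fcgr2b, with −0.91 ± 0.56, was not called (0.212). The Fcer1g call was lost without control day 0 (adjusted p = 0.0717), control day 21 (0.0944) or L-fuc day 21 (0.0904). At day 7 the T cells with a Sox10 UMI had more Fcer1g than those without, 644 against 423 CPM in control and 779 against 352 CPM with L-fuc. The 8 macrophage markers summed to 977 CPM in T cells of control day 7 and 428 CPM at L-fuc day 7, against 58.6 to 312 CPM elsewhere, and their part in these values was not tested.

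Other immune gates were smaller than the macrophage class. NK cells, gated on Ncr1 without Cd3, had 2122 CPM of Fcer1g in 15 barcodes at control day 0, 901 in 257 at control day 7, 1544 in 389 at L-fuc day 7 and 1345 in 11 at L-fuc day 21, with 41.6 to 106 CPM of Fcgr3. Fcgr2b in NK cells was 34.8 CPM at control day 7, where its interval overlapped that of Fcgr3, and 9.80 CPM against 47.3 of Fcgr3 at L-fuc day 7. B cells, gated in 71 barcodes of control day 0, had 87.5 CPM of Fcgr2b (57.7 to 127), 19.5 of Fcgr3, 51.9 of Fcer1g and no Fcgr4 UMI. Monocytes (Ly6c2 and Plac8) had 764, 198, 154 and 559 CPM of Fcgr2b in the same 4 libraries, and only 23.2 to 68.2 CPM of Fcgr4. Neutrophils of L-fuc day 7, in 34 barcodes, had 312 CPM of Fcgr3 (204 to 457) and 120 of Fcgr4.

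Of 42 further genes of the Fc receptor pathway, 10 encode other Fc receptors, 24 adaptors and kinases, and 8 inhibitors. Between macrophages and other Ptprc-positive barcodes 21 of 40 tested were called higher and 9 lower, where 30.2% of all genes were called, with a median log2 difference of 0.92 against −0.11 over all genes. Those higher included the kinases Lyn (2.34) and Syk (1.20), the adaptor Tyrobp (2.41), the neonatal Fc receptor Fcgrt (2.29), and the inhibitors Pirb (2.09), Lilrb4a (1.45) and Inpp5d (0.87). Among those lower was the T cell and NK cell signalling chain Cd247 (−2.34). In mast cells or basophils 10 of 36 were called higher and 3 lower, where 6.49% of all genes were called, with a median of 0.23 against −0.11. The mast cell adaptors Lat2 (3.91) and Gab2 (2.33), the kinase Lyn (1.54) and the inhibitors Lilrb4a (3.35) and Pirb (3.08) were higher. In tumor barcodes against T cells 3 of 33 were higher and 27 lower, where 49.0% of all genes were called, with Tyrobp at −4.36 and Syk at −3.79, and Fcgrt at 2.32.

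In macrophages at day 7, 4 of 38 pathway genes were at least 1.5-fold higher with L-fuc and 1 lower, against 20.3% of all genes in either direction. The 4 were Cd247 (log2 ratio 1.15), Fcrl1 (0.87, on 48 UMIs), Hcst (0.86) and Lat (0.84), and the summed level of the 3 Cd3 genes in macrophages was 450 CPM with L-fuc and 244 CPM in control. The 3 NK cell markers summed to 589 CPM with L-fuc and 123 CPM in control, and the part of either list in these ratios was not tested. Fcrlb stood at −0.65. At day 21 Fcrla was higher (2.53, on 62 UMIs) and Fcrl5 lower (−1.14). The 4 B cell markers summed to 159 CPM in these macrophages with L-fuc and 50.6 CPM in control, and their part in the Fcrla ratio was not tested. Fcrl5 had 50.2 CPM with L-fuc and 111 CPM in control.

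The genes most like each member were found by Pearson's r of log2(CPM + 10) over 17 sums of a class in a library and 14227 genes, as a description with no test, since sums of 1 library share its depth. Fcer1a was closest to Slc18a2 (r = 0.999), Ms4a2 and Tph1, and Ms4a2 to Fcer1a, Cd200r3 and Slc18a2. Fcer1a and Ms4a2 were at 0.875 CPM or less in the other classes, so the 2 sums of mast cells or basophils carry these values. Genes confined to that gate score high by construction. Fcgr4 was closest to Clec4a1 (0.994), Fpr2 and Clec4a3, and Fcgr1 to Tlr2 (0.990), Wfdc17 and Msr1. Fcgr3 was closest to Basp1 (0.987), Spi1 and Gngt2, and Fcgr2b to Ms4a6d (0.969), Basp1 and Gngt2. For Fcer1g the nearest were Pgd (0.942), Ctsc and Pla2g7.

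On GRCm38 a run of 4 members lies on chromosome 1: Fcgr2b at 170958617 to 170976547 (minus strand), Fcgr4 at 171018920 to 171029761 (plus), Fcgr3 at 171051174 to 171064935 (minus) and Fcer1g at 171229572 to 171234365 (minus). Fcer1a is farther along it, at 173221284 to 173227214 (minus), Fcgr1 is on chromosome 3 at 96282909 to 96293969 (minus), and Ms4a2 is on chromosome 19 at 11615523 to 11623719 (minus). Fcgr2b overlaps the antisense gene Gm38204, which had 18 kept UMIs against 21634. The Fcgr genes resemble each other in sequence, and how reads that match more than 1 of them were counted is not given in the sources used here.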

How the data were processed

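The 5 gene expression libraries were used, and the 5 T cell receptor libraries were not. The authors aligned the reads to mm10 with Cell Ranger and deposited raw UMI counts per gene and barcode that had not been normalized. The submitters' processing notes name Cell Ranger 3.0 and Seurat 4.0, whereas the file headers name Cell Ranger 7.1.0. Whether intronic reads were counted is not given in the sources used here.

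UMIs were summed over the barcodes of a class in a library and scaled to 1000000 (CPM). No doublet caller was run, and alternatives removed barcodes with a UMI of Sox10, a Cd3 gene or Cd79a. Intervals are exact (Poisson, binomial or conditional binomial), at the 95% level. Classes were compared across libraries with edgeR 4.0.16 in R 4.3.3 (quasi-likelihood test, TMM, filterByExpr, library as a block, class sums of at least 10 barcodes, genes of the gates left out), with Benjamini-Hochberg adjustment over all genes tested and a threshold of 0.05. The test was checked on simulated data, and DESeq2 1.42.0 was an alternative. The SE beside an edgeR log2 difference is the size of that difference divided by the square root of the test's F value. Conditions were compared as ratios, without a test, where a gene had 30 UMIs or more over both libraries.

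The members and lists were chosen with earlier results of these data known. Named are the 7 members, the genes of a list of 42 further pathway genes that were called or past 1.5-fold, and the 3 genes most like each member; any other gene was chosen once its values were known. Some results are not reported here. The comparison of tumor barcodes with T cells, the sets of tumor barcodes and the ratios within macrophage strata were added after the data had been seen. Positions are from GENCODE vM21 (GRCm38) and promoters from RefSeq (GRCm38.p6), with all 7 members matched. The other steps ran in Python 3.11.15 with scipy 1.17.1, numpy 2.4.6, matplotlib 3.10.9 and pandas 2.3.3.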

Additional observations from a re-analysis of the deposited data

Results flagged for a closer look

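For 4 members the L-fuc and control libraries differed in opposite directions at day 7 and day 21 in macrophages, and this difference between time points was not tested, since each is 1 library against 1 library. They were picked by intervals for counting error that lay on either side of 1. The share of all genes that did so was not counted, so the number is not read as a trait of these members. On the log2 scale the L-fuc to control ratio was 0.19 at day 7 and −0.26 at day 21 for Fcgr1, −0.66 and 0.15 for Fcgr2b, 0.35 and −0.92 for Fcgr4, and 0.13 and −0.56 for Fcer1g. For Fcgr2b and Fcgr4 at both days, for Fcer1g at both days and for Fcgr1 at day 21 the sign was the same in all 8 alternatives, while Fcgr1 at day 7 came to −0.01 after thinning to 1000 UMIs. Strata of macrophages are not among these alternatives. At day 21 Fcgr1 stood at 1.82 of control (1.38 to 2.41) with at least 3 Arg1 UMIs, and below control in the other strata. Fcgr2b at day 21 stood at 0.702 with at least 3 Arg1 UMIs and 1.01 without Arg1. In the Cx3cr1 and cycling strata it was at 1.04 to 1.40.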

How the results depend on the processing

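Of 94 alternative values for the 11 counts and shares compared, 77 stayed within 1.5 times (for the shares, within their interval). A count of genes has no direction to reverse. The ratios of the Fcgr2b share at day 7 and day 21 kept their direction in every alternative. Requiring at least 100 UMIs left 1737 of 2617 genes past 1.5-fold at day 7 in macrophages, 571 of 1341 at day 21 and 563 of 2130 in mast cells or basophils, where fewer genes enter. Thinning to 1000 UMIs left 376 in mast cells or basophils, 3539 of 5660 from control day 0 to day 7 and 2870 of 4797 from day 7 to day 21, and leaving out Sox10, Cd3 or Cd79a barcodes gave 3733 and 2679 for the time course. The ratio of the Fcgr2b share at day 7 (0.744) was 0.772 with at least 30 C1q UMIs and 0.621 after thinning, and that at day 21 (1.34) was 1.65 after thinning. Macrophages against other Ptprc-positive barcodes gave 4088 calls, 1846 without the library block and 2405 to 3617 with 1 library left out, the lowest without L-fuc day 21 and 2449 without L-fuc day 7. Mast cells or basophils gave 825 calls, 230 under DESeq2 and 190 without the block. Tumor barcodes against T cells gave 6271 calls and 3010 to 6002 with 1 library left out, the lowest without L-fuc day 7. Where no construction shows it, the cause was not tested. Of 376 values for single genes, 293 were the same, 73 moved and 10 lost their call. Ratios short of 1.5-fold that changed sign are counted as moved. Among them was Fcgr2b from control day 7 to day 21, with the same sign in 5 of 8 alternatives. Mast cells or basophils could not be compared with a gate of at least 10 UMIs, without Sox10, Cd3 or Cd79a barcodes, or with a library left out. No paired analysis between conditions was possible because each condition is 1 pooled library. The mast cell or basophil values rest on 13 barcodes at control day 7, 7 at control day 21 and 1 at L-fuc day 21.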
